A study of Mus musculus with 4 samples.

Results

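Cytokine receptor subunits were described in haematopoietic stem cells (HSCs), the bone marrow cells that renew themselves and give rise to all blood lineages. A list of 39 mouse receptor genes named the members, and a member counted where the array carried a probe set that names it alone. By this rule 36 of the 39 genes were measured, out of 18193 genes in all, and Il1rl1, Il2rg and Il11ra1 had no such probe set. A gene with several probe sets was represented by its brightest one, by the mean of the 4 arrays.

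The HSCs came from transgenic mice carrying a fusion of N-myc with the red fluorescent protein mCherry, and both groups carry this fusion. The sort kept cells positive for Sca-1, Kit and CD150 and negative for CD48 and lineage markers, with no culture and no treatment. By mCherry signal they were divided into N-myc high HSCs and N-myc low HSCs. The labels name mouse 1 and mouse 2 in both fractions, so there are 2 arrays per group, each made from 5 ng of amplified RNA. Values are log2 probe set intensities, and the values of a fraction are given as mouse 1, then mouse 2. The sources used here do not give the strain, the age or the design of the fusion. The sort defines the groups by reporter level, so the fractions are not a gain or loss of N-myc.

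Cytokine receptors are built from subunits that bind a ligand and subunits that carry the signal into the cell. One signalling subunit often serves several ligands, as the common beta chain does for GM-CSF and IL-3 and gp130 (Il6st) for IL-6, LIF, oncostatin M and IL-27. Most of these subunits signal through JAK kinases and STAT factors, while IL-1 family receptors use MyD88 and TNF receptors use TRADD and TRAF proteins. HSCs are known to sense interferons, IL-1, TNF, IL-6 and M-CSF during inflammation, beside the stem cell factor signal that maintains them.

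The promoters of 3 members are printed first, because their genes gave the widest differences among members above the background reference, and because Il6ra and Il6st encode partners of the same receptor. RefSeq's promoter table (GRCm38.p6) held entries for 31 of the 39 members, in 39 windows, and none for Csf1r, Csf2rb, Il10ra, Il10rb, Il12rb1, Il17ra, Il27ra and Il2rb. Each run covers the 250 bases before the start of the gene, 5′ to 3′ on the gene's strand. They lie at chr3:89913197-89913446 on the minus strand (Il6ra), chr13:112463820-112464069 on the plus strand (Il6st) and chr15:78305722-78305971 on the minus strand (Csf2rb2). Capitals mark matches to 3 motifs.
Il6ra: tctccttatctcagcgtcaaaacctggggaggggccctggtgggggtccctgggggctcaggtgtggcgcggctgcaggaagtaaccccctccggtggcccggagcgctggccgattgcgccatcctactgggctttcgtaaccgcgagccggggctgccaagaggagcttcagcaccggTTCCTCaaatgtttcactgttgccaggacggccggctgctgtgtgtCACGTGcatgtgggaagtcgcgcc
Il6st: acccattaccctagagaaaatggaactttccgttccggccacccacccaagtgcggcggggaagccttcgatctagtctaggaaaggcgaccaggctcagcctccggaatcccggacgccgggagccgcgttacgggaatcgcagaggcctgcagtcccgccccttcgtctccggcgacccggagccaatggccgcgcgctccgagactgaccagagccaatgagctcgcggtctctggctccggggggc
Csf2rb2: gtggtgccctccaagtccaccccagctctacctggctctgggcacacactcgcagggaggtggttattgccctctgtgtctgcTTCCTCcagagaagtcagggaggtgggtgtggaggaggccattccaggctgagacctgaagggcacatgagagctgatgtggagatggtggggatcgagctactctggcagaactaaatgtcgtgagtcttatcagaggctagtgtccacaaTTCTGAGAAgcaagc

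The motifs searched were the E-box CACGTG, a sequence that MYC family proteins bind, the STAT type motif TTCNNNGAA, and the PU.1 type motif GAGGAA, which reads TTCCTC on the other strand. Both strands were searched, and the first pair of motifs reads the same on both. The E-box was found in 1 of the 39 member windows (2.56%), that of Il6ra, against 6.02% of the 32851 windows of all genes. The STAT type motif was in 7 of 39 windows (17.9%), Csf2rb2, Ifnar2, Il12rb2, Il18r1, Il7r, Tnfrsf1a and Tnfrsf1b, against 7.02% of all windows. The PU.1 type motif was in 12 of 39 (30.8%), among them Csf2ra, Csf2rb2, Csf3r and Il6ra, against 23.3% of all windows. The Il6st window held none of the 3. These matches describe letters in these windows and say nothing of binding.

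The arrays and labels were checked through Mycn, the gene behind the sort. It had log2 intensities of 10.48 and 10.39 in the N-myc high arrays of mouse 1 and 2, and 9.44 and 9.65 in the N-myc low ones. The fractions did not overlap, with N-myc high above by 0.89 (SE 0.189, limma adjusted p = 0.762). A second bright Mycn probe set overlapped, at 9.56 and 9.10 against 9.23 and 9.20, and gave 0.11. A dim one also overlapped, at 4.32 and 6.72 against 4.52 and 4.40, and its difference of 1.06 came from N-myc high mouse 2. Huwe1, which encodes the ubiquitin ligase named in the study's title, differed by -0.12 (SE 0.175, limma adjusted p = 0.920). Both arrays labelled mouse 1 carried the female-specific Xist at 11.38 and 11.10 together with the Y-linked Eif2s3y at 8.53 and 8.43. The arrays labelled mouse 2 had Xist at 3.84 and 3.70 and Eif2s3y at 9.40 and 9.67, so material of each number matched across the fractions and differed from the other number's. Whether the mouse 1 arrays hold RNA of a single animal cannot be told here. Of 9 long-term HSC markers, 9 lay above the reference described next on all 4 arrays, beside 70.8% of all genes. So did 6 of 6 multipotent progenitor markers, 7 of 7 erythroid and megakaryocyte markers and 8 of 9 granulocyte and monocyte markers. This count therefore does not tell these cell types apart. The granulocyte genes S100a8 and S100a9 were also bright, between 13.22 and 13.69 on the 4 arrays. Of 7 T and NK cell markers, 4 were below the reference on every array, beside 3681 of all 18193 genes. These 4 were the T cell receptor genes Cd3e, Cd3d and Cd3g and the NK gene Ncr1. The other 3, Cd2, Gzmb and Nkg7, were above it on every array, beside 70.8% of all genes. In such bulk samples, fewer cells of a type and less RNA per cell cannot be told apart.

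To describe which receptors the cells carry as RNA, each member was set beside olfactory receptor genes, which blood cells are not known to use. The 39 olfactory receptor genes on the array had a 95th percentile of 3.97 and 4.10 in the N-myc high arrays and 3.93 and 4.23 in the N-myc low ones (mouse 1 and 2). A member was counted as above this reference where it exceeded it on all 4 arrays. This was so for 28 of the 36 members (77.8%), beside 70.8% of all genes, so the share of receptors was near that of the array as a whole. With the 99th percentile as the reference, 24 members were above it, and Lepr, Il10ra, Il1r1 and Il18r1 no longer were. The share of all genes above that stricter reference is not given here, so the count of 24 has no background beside it. Probe sets bind with different strength, so log2 intensities were not used to rank one receptor against another.

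**Figure D1:**
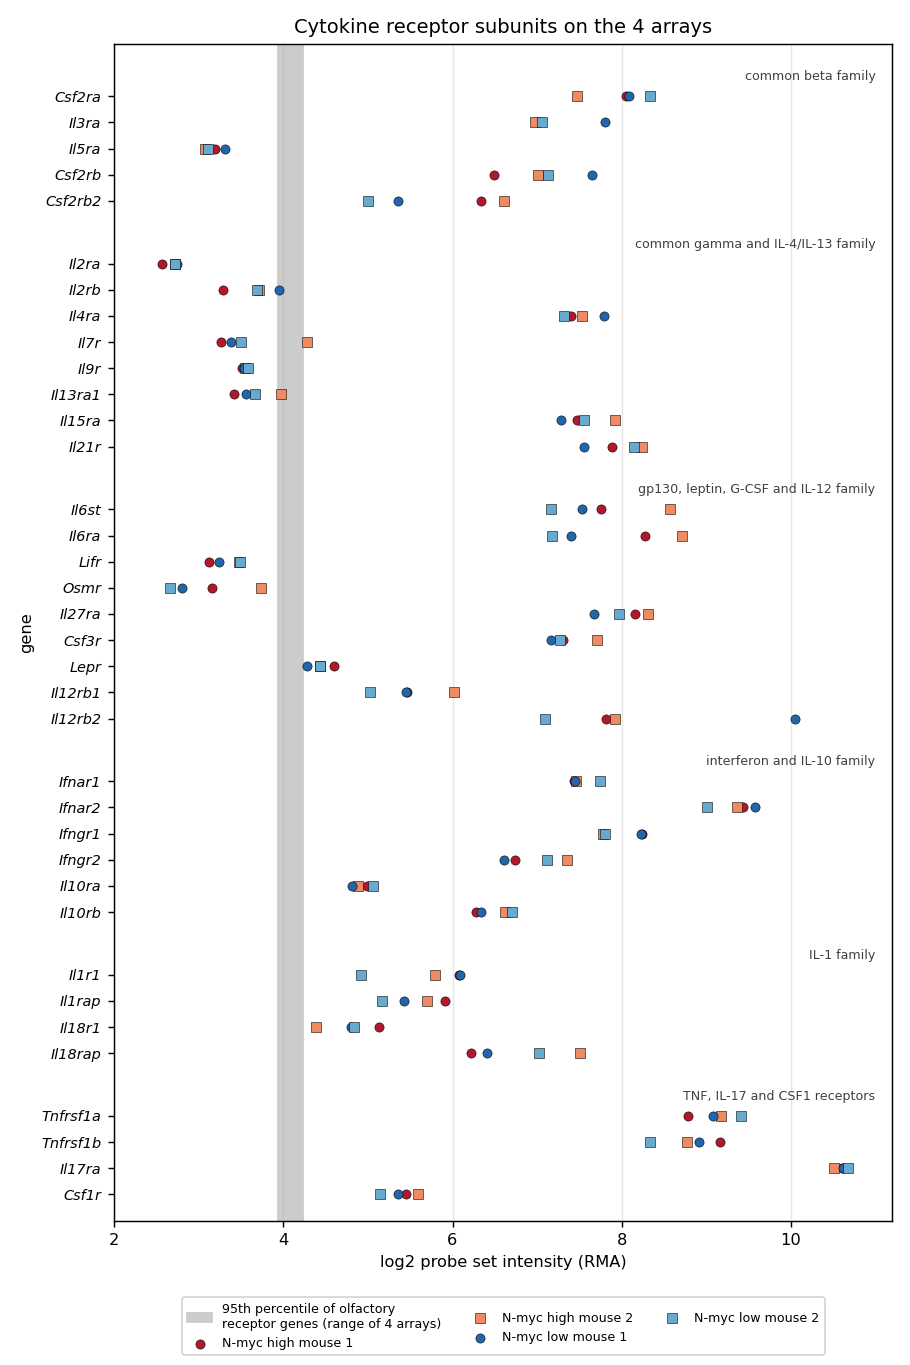
Log2 probe set intensity (x axis) of the 36 measured receptor subunits (y axis, by family) on each of the 4 arrays, with the range over arrays of the olfactory receptor 95th percentile as a grey band. Il5ra, Il2ra, Il9r, Il13ra1, Lifr and Osmr lie in or left of the band on every array, and N-myc low mouse 1 stands alone at 10.05 for Il12rb2.

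Beside 3681 of all 18193 genes, 6 of the 36 receptors (16.7%) were below the reference on every array. These were Il5ra, the IL-5 binding chain of eosinophils and B-1 cells, Il2ra, the high-affinity IL-2 chain, Il9r, Il13ra1, Lifr and Osmr. Il2ra ranged from 2.57 to 2.74 and Il5ra from 3.07 to 3.31. Il7r, the receptor chain of lymphoid progenitors, was at 3.26 and 4.28 in the N-myc high arrays and 3.38 and 3.50 in the N-myc low ones. It was above the reference on 1 array, N-myc high mouse 2, and Il2rb likewise on 1 array, N-myc low mouse 1 at 3.95.

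Receptors work as complexes, and 14 complexes of a pair of members could be checked, a list drawn up after the values were seen. Both subunits were above the reference on all arrays for 10 of them (beside 70.8% of all genes taken singly), the receptors of GM-CSF, IL-3, IL-6, IL-27, IL-12, type I interferon, interferon gamma, IL-10, IL-1 and IL-18. Of these, the IL-10, IL-1 and IL-18 receptors did not hold with the 99th percentile as the reference. Il10ra fell below it on N-myc low mouse 1 (4.81 against 4.89) and Il1r1 on N-myc low mouse 2 (4.918 against 4.932). Il18r1 did so on N-myc high mouse 2 (4.39 against 4.78) and both N-myc low arrays. For the other 4, those of IL-5, LIF and oncostatin M and the type II IL-4 receptor, 1 subunit (Il5ra, Lifr, Osmr or Il13ra1) was below the reference while its partner was above it. With Il2rg not measured, the receptors that share the common gamma chain could not be completed. These are RNA levels and do not show receptor protein at the surface.

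The fractions were then compared over all 18193 genes with limma (N-myc high minus N-myc low), with 0.05 as the threshold on the Benjamini-Hochberg adjusted p. None of the 36 receptors passed (0 of 36, beside 0.0% of all genes, 0 of 18193). At an unadjusted p under 0.05 in the same limma fit, 642 genes were higher and 506 lower. Of these, 3 receptors were higher (8.33%, beside 3.53% of all genes) and 0 lower (beside 2.78%). These were Csf2rb2, Il6ra and Osmr, and Csf2rb2 and Il6ra also met the narrower rule of an unadjusted p under 0.01 and 1.5-fold (5.56%, beside 0.742% of all genes), while 0 were lower by that rule (beside 0.484%). With the mouse as a block in the limma fit, Csf2rb2 and Il6ra were left at an unadjusted p under 0.05 (2 of 36, 5.56%, beside 3.59% of all genes), and 0 met the narrower rule (beside 0.709%). The blocked unadjusted p was 0.0118 for Csf2rb2, 0.0160 for Il6ra and 0.0714 for Osmr. The fractions did not overlap, with N-myc high above, for 9 receptors (25.0%, beside 15.6% of all genes) and with N-myc high below for 4 (11.1%, beside 20.8%). With each array centred on its median the split was 7 above and 8 below, beside 12.4% and 26.4% of all genes. The median difference over the 36 receptors was 0.10 on the log2 scale, beside -0.03 over all genes, with -0.01 in mouse 1 and 0.22 in mouse 2. Leaving out N-myc high mouse 2 gave 0.01, and leaving out N-myc low mouse 1 gave 0.06. For 20 receptors the difference was smaller than its SE, and for 11 the sign was opposite in the mice. The shares of all genes for these counts are not given here, so the counts do not set the receptors apart. Between the mice, the differences correlated at 0.25 over the receptors, beside 0.11 over all genes. The arrays of one mouse lay above both arrays of the other, whatever the fraction, for 16 receptors (44.4%, beside 31.5% of all genes).

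**Figure D2:**
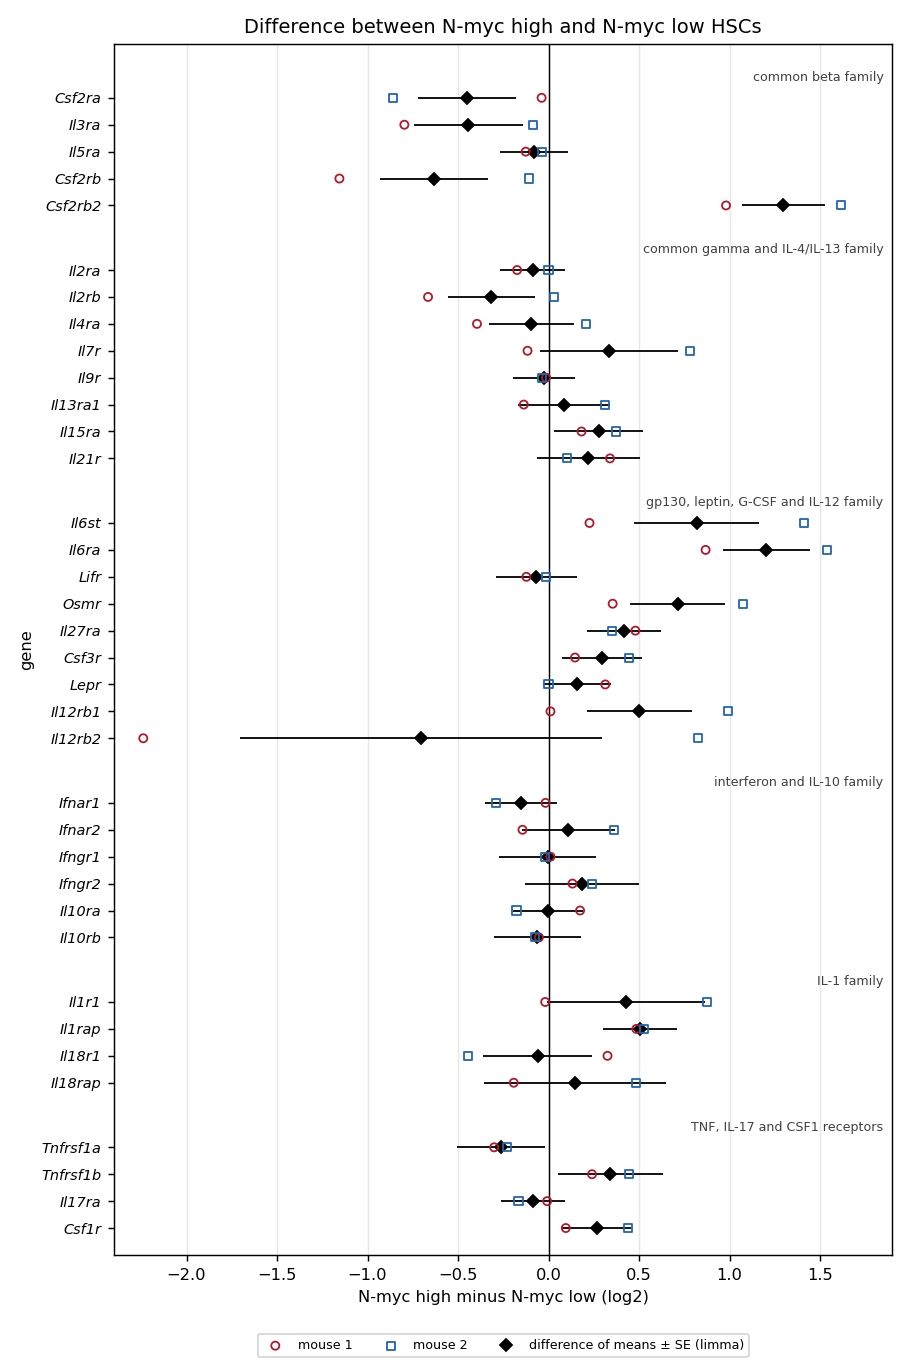
Difference N-myc high minus N-myc low on the log2 scale (x axis) for each receptor subunit (y axis, by family), with the limma SE as a bar and the difference within each mouse as open symbols. Csf2rb2 and Il6ra lie farthest to the right, at 1.30 and 1.20, and the mice lie on opposite sides of 0 for Il12rb2, at -2.24 and 0.83.

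In the family of the common beta chain, the chains that bind GM-CSF and IL-3 and the shared beta chain had lower values in N-myc high, and a second beta chain had higher values, all short of the threshold. Csf2rb2 encodes the mouse beta chain that serves IL-3 alone. It had log2 intensities of 6.33 and 6.61 in the N-myc high arrays and 5.35 and 5.00 in the N-myc low ones. Both N-myc high arrays stood above both N-myc low arrays, and the difference exceeded the gap between arrays of a fraction. The difference was 1.30 (SE 0.228, 2.46-fold), with 0.98 in mouse 1 and 1.62 in mouse 2, and it missed the threshold (limma adjusted p = 0.744, unadjusted p = 0.00327). Csf2rb2 rested on 1 probe set.

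Csf2rb encodes the common beta chain itself, which pairs with the alpha chains of the GM-CSF, IL-3 and IL-5 receptors. It was at 6.49 and 7.01 in the N-myc high arrays and 7.64 and 7.12 in the N-myc low ones, so N-myc low mouse 1 was the highest and N-myc high mouse 1 the lowest. The difference was -0.63 (SE 0.300, limma adjusted p = 0.793), of which mouse 1 gave -1.16 and mouse 2 -0.11. A second Csf2rb probe set differed by 0.01, and on it the mouse 1 arrays (7.47 and 7.40) stood above the mouse 2 arrays (6.11 and 6.16) in both fractions. Csf2rb2 and Csf2rb are neighbouring genes (RefSeq, GRCm38.p6) and close relatives in sequence, and whether a probe set of one binds RNA of the other was not tested. Their differences had opposite signs on the probe sets used.

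Csf2ra, the GM-CSF binding chain, was at 8.05 and 7.47 in the N-myc high arrays and 8.09 and 8.33 in the N-myc low ones. The arrays did not overlap, but in mouse 1 the gap was -0.04, against -0.86 in mouse 2, and its other probe set gave 0.38. Il3ra, the IL-3 binding chain, was at 7.01 and 6.97 in the N-myc high arrays and 7.80 and 7.06 in the N-myc low ones, where N-myc low mouse 1 stood apart. The differences of -0.45 for Csf2ra (SE 0.270) and -0.44 for Il3ra (SE 0.302) missed the threshold in limma (adjusted p = 0.811 and 0.827). Il5ra differed by -0.08. Over the 5 members of this family the median was -0.44, and it was -0.07 without N-myc low mouse 1, -0.16 without N-myc high mouse 2 and -0.08 with the mean of each gene's probe sets.

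Granulocyte and monocyte markers had negative differences for 9 of 9 genes, with N-myc high below N-myc low without overlap for 7 (beside 20.8% of all genes), from Elane at -0.83 to S100a8 at -0.13. Their mean log2 level was 10.21 and 9.73 in the N-myc high arrays and 10.36 and 10.33 in the N-myc low ones. Of the 9, 8 were above the reference on all arrays (beside 70.8% of all genes). Mast cell and basophil markers had a mean level of 4.18 and 4.32 in the N-myc high arrays and 4.65 and 4.38 in the N-myc low ones, with Cpa3 at -1.59, Fcer1a at 0.61 and Tpsab1 below the reference throughout. By list, 3 of the 7 mast cell and basophil differences were positive, and macrophage markers had a positive median of 0.26. The part of these markers in the values of Csf2ra, Il3ra and Csf2rb was not tested.

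Among receptors of the gp130 family and its relatives, 6 of 9 members stood higher in N-myc high without overlap (beside 15.6% of all genes) and 0 lower. The median of these 9 was 0.42, with 0.23 in mouse 1 and 0.83 in mouse 2, while leaving out N-myc high mouse 2 gave 0.24 and leaving out N-myc low mouse 1 gave 0.72. Il6ra, the chain that binds IL-6, was at 8.27 and 8.71 in the N-myc high arrays and 7.40 and 7.17 in the N-myc low ones. The N-myc high arrays were the higher pair in both mice, by 0.87 in mouse 1 and 1.54 in mouse 2. The difference was 1.20 (SE 0.238, 2.30-fold) and missed the threshold (limma adjusted p = 0.762, unadjusted p = 0.00524). The other Il6ra probe set gave 0.09 with overlapping arrays, at 5.84 and 6.07 in the N-myc high arrays and 6.30 and 5.43 in the N-myc low ones.

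Il6st encodes gp130, the signalling chain that IL-6 receptor shares with its relatives. It was at 7.75 and 8.57 in the N-myc high arrays and 7.53 and 7.16 in the N-myc low ones, with N-myc high mouse 2 standing well above the other arrays. The difference was 0.82 (SE 0.345, limma adjusted p = 0.791), of which mouse 1 gave 0.23 and mouse 2 1.41. Of its other 3 probe sets, those at 0.57 and 0.92 also had N-myc high above N-myc low without overlap. The remaining one had the opposite order, at 5.99 and 6.45 in the N-myc high arrays and 7.63 and 6.70 in the N-myc low ones, and gave -0.95. The promoter windows of Il6ra and Il6st printed above share none of the 3 motifs.

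**Figure D3:**
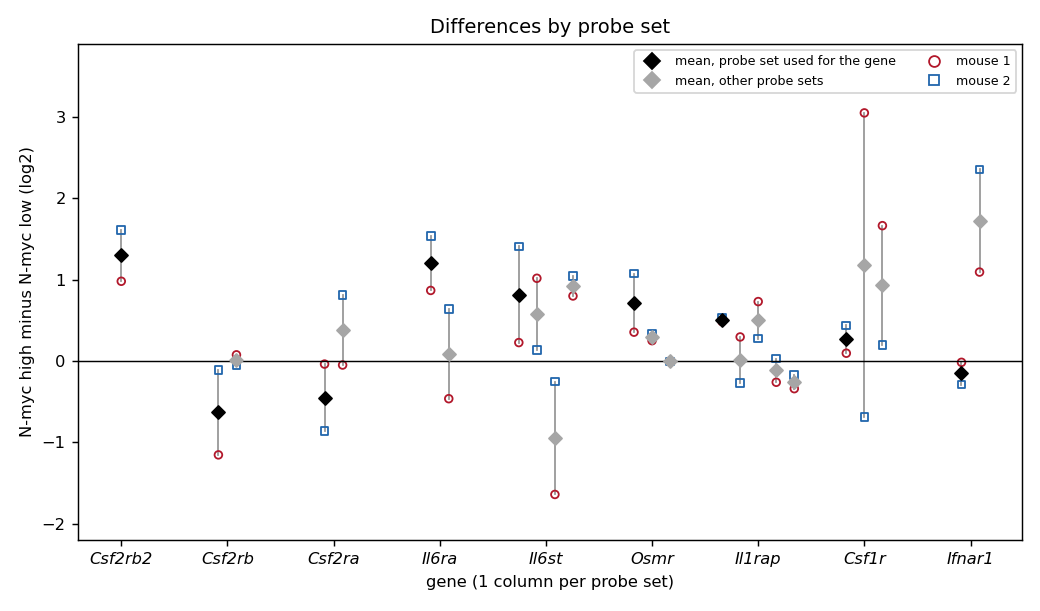
Difference N-myc high minus N-myc low on the log2 scale (y axis) for every single-gene probe set of 9 receptor genes (x axis, brightest probe set at the left of each gene), with mouse 1 and mouse 2 as open symbols joined by a line. Il6st has 3 probe sets above 0 and 1 at -0.95, and the second probe set of Ifnar1 lies at 1.73 while the first lies at -0.15.

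Il27ra, which pairs with gp130 for IL-27, was at 8.15 and 8.32 in the N-myc high arrays and 7.67 and 7.96 in the N-myc low ones. Its difference of 0.42 (SE 0.204, limma adjusted p = 0.794) was similar in mouse 1 (0.48) and mouse 2 (0.35). Csf3r, the G-CSF receptor, was at 7.31 and 7.71 against 7.16 and 7.27, a difference of 0.30 (SE 0.220). Il12rb1, a shared chain of the IL-12 and IL-23 receptors, was at 5.46 and 6.01 against 5.45 and 5.02, and its difference of 0.50 came from mouse 2 (0.99) with 0.01 in mouse 1. The groups of Csf3r and Il12rb1 overlapped once each array was centred on its median.

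Osmr, the oncostatin M chain, was at 3.15 and 3.73 in the N-myc high arrays and 2.80 and 2.66 in the N-myc low ones. The difference was 0.71 (SE 0.263, limma adjusted p = 0.779, unadjusted p = 0.0468), but every value lay below the olfactory receptor reference. Its other probe sets gave 0.29 and -0.0047. Lifr, the neighbouring gene, ranged from 3.12 to 3.49 and differed by -0.07. Lepr, the leptin receptor, ranged from 4.28 to 4.60 and differed by 0.16, or -0.07 with the mean of its 4 probe sets.

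Il12rb2, the signalling chain of the IL-12 receptor in T and NK cells, was set by a single array. It was at 7.81 and 7.92 in the N-myc high arrays and 10.05 and 7.10 in the N-myc low ones. N-myc low mouse 1 stood more than 2 above every other array, and the difference was -2.24 in mouse 1 and 0.83 in mouse 2. The pooled difference was -0.71 (SE 1.00, limma adjusted p = 0.919), and it was 0.77 without that array. T and NK cell markers had a mean log2 level of 4.58 on that array and 4.25 to 4.49 on the others, with Cd3e, Cd3d, Cd3g and Ncr1 below the reference on every array. Of the 7 markers, Gzmb and Nkg7, above it on every array, were lower in N-myc high without overlap (2 of 7, beside 20.8% of all genes). Nkg7 was at 8.48 and 8.55 in the N-myc high arrays and 9.12 and 9.44 in the N-myc low ones. Cd3d was higher in N-myc high without overlap, by 0.20 (1 of 7, beside 15.6% of all genes). The other 4 overlapped, among them Cd2 at -0.04, and the list median was -0.04. The part of these markers in the Il12rb2 value was not tested. Il12rb2 rested on 1 probe set.

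Of 9 long-term HSC markers measured, 5 stood higher in N-myc high without overlap (beside 15.6% of all genes) and 0 lower, with a median difference of 0.79 that ran from -0.13 for Kit to 1.58 for Fgd5. Multipotent progenitor markers were lower in N-myc high without overlap for 5 of 6 (beside 20.8% of all genes), with Cd48, a gene the sort itself used, at -2.21, while Flt3 was at 1.20. Cd48 RNA was at 7.42 and 7.11 in the N-myc high arrays and 9.89 and 9.07 in the N-myc low ones. It was above the reference on all 4 arrays, although the sort kept CD48-negative cells. The mean level of the HSC markers was 8.90 and 9.05 in the N-myc high arrays and 8.43 and 8.11 in the N-myc low ones, and that of the progenitor markers 9.19 and 9.39 against 10.13 and 9.79. Their part in the receptor values was not tested.

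The interferon and IL-10 receptor chains were above the reference on all arrays for 6 of 6 (beside 70.8% of all genes). On the probe sets used the fractions overlapped for 6 of 6 (beside 15.6% of all genes with N-myc high above and 20.8% with it below). The family median was -0.0036, and 0.20 with the mean of each gene's probe sets. Ifnar1 and Ifnar2 form the type I interferon receptor. Ifnar2 was at 9.43 and 9.37 in the N-myc high arrays and 9.57 and 9.004 in the N-myc low ones, a difference of 0.11 (SE 0.257). Its other probe sets gave 0.77, with N-myc high above without overlap, and -0.35. Ifnar1 was at 7.43 and 7.45 against 7.45 and 7.74, a difference of -0.15 (SE 0.198). The second Ifnar1 probe set disagreed, at 7.06 and 7.33 in the N-myc high arrays and 5.97 and 4.97 in the N-myc low ones, and gave 1.73.

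Ifngr1, the interferon gamma binding chain, was at 8.23 and 7.77 in the N-myc high arrays and 8.22 and 7.80 in the N-myc low ones. Both arrays of mouse 1 were the higher pair, and the difference between fractions was -0.0057 (SE 0.271). Ifngr2, its signalling partner, was at 6.74 and 7.35 against 6.61 and 7.11, with both arrays of mouse 2 higher and a difference of 0.19 (SE 0.315). Its second probe set gave 1.09, at 7.03 and 7.82 against 5.90 and 6.78. Il10ra and Il10rb, the IL-10 receptor chains, differed by -0.0014 (SE 0.193) and -0.06 (SE 0.240), and for Il10rb both arrays of mouse 2 (6.63 and 6.70) stood above those of mouse 1 (6.28 and 6.33). The other probe sets of Il10ra gave 0.29, with N-myc high above without overlap, and 0.37. On the probe sets used, the arrays of Ifnar1, Ifnar2, Ifngr1, Ifngr2 and Il10rb parted by mouse, while the second Ifngr2 probe set parted by fraction.

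On the probe sets used, Il1rap was the IL-1 family member whose fractions did not overlap (1 of 4, beside 15.6% of all genes). Il1rap encodes the accessory chain that IL-1, IL-33 and IL-36 receptors share. It was at 5.91 and 5.69 in the N-myc high arrays and 5.43 and 5.17 in the N-myc low ones, and the order was the same in both mice. The difference was 0.51 (SE 0.206, limma adjusted p = 0.783), with 0.49 in mouse 1 and 0.53 in mouse 2. Its other 4 probe sets, all dimmer, ranged from -0.26 to 0.50. Il1r1, the IL-1 binding chain, was at 6.08 and 5.80 against 6.09 and 4.92, where N-myc low mouse 2 was the low array, and its difference of 0.43 (SE 0.437) was -0.16 without that array. Il18r1 and Il18rap, neighbouring genes for the IL-18 receptor chains, differed by -0.06 and 0.15, and Il18rap was higher in both arrays of mouse 2 (7.50 and 7.02) than in those of mouse 1 (6.22 and 6.41). The second Il18rap probe set had N-myc high above without overlap, at 5.86 and 5.78 against 5.68 and 4.98, and gave 0.49.

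The TNF receptors, the IL-17 receptor and the M-CSF receptor were above the reference on all arrays (4 of 4, beside 70.8% of all genes). Il17ra, the chain that IL-17 family receptors share, was at 10.61 and 10.51 in the N-myc high arrays and 10.61 and 10.68 in the N-myc low ones. Its 4 arrays lay close together, and the N-myc high pair was lower without overlap, by a difference of -0.09 (SE 0.176) that was under its SE. The second Il17ra probe set had the same order and gave -0.35 (SE 0.196), and the mean of both gave -0.22. Tnfrsf1a, the death-domain receptor of TNF, was at 8.78 and 9.18 against 9.08 and 9.40, a difference of -0.26 (SE 0.242). Tnfrsf1b, the other TNF receptor, was at 9.16 and 8.77 against 8.92 and 8.33, a difference of 0.34 (SE 0.289). The pair of TNF receptors had opposite signs in both mice, and neither passed.

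Csf1r, the M-CSF receptor of monocytes and macrophages, was at 5.45 and 5.59 in the N-myc high arrays and 5.36 and 5.15 in the N-myc low ones. The groups did not overlap, and the difference was 0.27 (SE 0.191, limma adjusted p = 0.830). Its other probe sets gave 1.18 and 0.93, and both were led by N-myc high mouse 1, at 6.38 and 5.33. Macrophage markers had a mean log2 level of 5.87 and 5.58 in the N-myc high arrays and 5.31 and 4.91 in the N-myc low ones, with C1qb at 2.66 and Siglec1 at -0.36, and Adgre1 below the reference on every array. Their part in the Csf1r value was not tested.

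On the probe sets used, 8 of 8 measured receptors of the common gamma and IL-4 and IL-13 group overlapped (beside 11568 of 18193 genes). The dimmest Il4ra probe set and the second probe sets of Il2rb and Il7r had N-myc high below without overlap. They gave -0.14, -0.21 and -0.26, those of Il2rb and Il7r below the reference, and the remaining probe sets of the group overlapped. Il4ra, shared by the IL-4 and IL-13 receptors, was at 7.40 and 7.53 in the N-myc high arrays and 7.79 and 7.32 in the N-myc low ones, a difference of -0.09 (SE 0.236). Il15ra was at 7.47 and 7.92 against 7.29 and 7.55, a difference of 0.28 (SE 0.245). Il21r was at 7.89 and 8.24 against 7.55 and 8.14, a difference of 0.22 (SE 0.286). Il2ra, Il9r and Il13ra1, below the reference on every array, differed by -0.09, -0.03 and 0.09. Il2rb, above it on N-myc low mouse 1 alone, differed by -0.32. Il7r differed by 0.33 (SE 0.383), and its value came from the single N-myc high array of mouse 2. B cell markers had a mean level of 5.23 and 5.30 in the N-myc high arrays and 4.73 and 5.12 in the N-myc low ones, led by Vpreb1 at 2.45, with Ms4a1 at -0.25 and below the reference throughout, and their part in the Il7r value was not tested.

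The other genes of cytokine signalling were taken from 5 lists, and 0 of their genes passed in limma in either direction. Among other haematopoietic cytokine receptors, 2 of 6 measured were higher at an unadjusted p under 0.05 (beside 3.53% of all genes) and 0 lower (beside 2.78%), and with the mouse as a block only Flt3 of these was (beside 3.59%). Flt3, the FLT3 ligand receptor, was at 8.18 and 8.28 in the N-myc high arrays and 7.49 and 6.56 in the N-myc low ones, a difference of 1.20 (SE 0.355). Tgfbr2 differed by 0.63, but its other probe sets gave -0.63 and -0.13. Epor, the erythropoietin receptor, differed by -0.37, and by 0.06 without N-myc low mouse 1.

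Negative feedback regulators held 4 of 12 genes at an unadjusted p under 0.05 and higher (beside 3.53% of all genes), and 0 lower (beside 2.78%), around a list median of 0.02. With the mouse as a block they were 3, without Pias3. Cish, a target and inhibitor of STAT5 signalling, was at 8.43 and 9.49 in the N-myc high arrays and 7.44 and 7.999 in the N-myc low ones. The difference was 1.24 (SE 0.435, limma adjusted p = 0.779), with 0.99 in mouse 1 and 1.49 in mouse 2. Socs2, another STAT5 target, was at 9.31 and 9.32 against 8.11 and 8.64, a difference of 0.94 (SE 0.247, limma adjusted p = 0.762). Its next brightest probe set gave 0.64, while 3 of its dim probe sets were negative. Socs5 differed by 0.79 and Pias3 by 0.73, whereas Socs3, which restrains gp130 signalling, was at 5.99 and 7.32 against 7.45 and 6.97 and differed by -0.55. The Socs3 value turned to 0.11 without N-myc high mouse 1, and its other probe sets gave -0.06 and 0.31.

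Of receptor-proximal signalling genes, 2 of 20 were higher at an unadjusted p under 0.05 (beside 3.53% of all genes) and 0 lower (beside 2.78%), with a median of -0.02. Sh2b3, the adaptor LNK that restrains cytokine and Kit signalling in HSCs, was at 8.86 and 9.07 in the N-myc high arrays and 7.98 and 8.16 in the N-myc low ones. The difference was 0.89 (SE 0.195, limma adjusted p = 0.762), though its other probe set gave -0.11. Stat6, the factor of IL-4 signalling, differed by 0.70 and the phosphatase gene Ptpn6 by -0.50. The kinases Jak1, Jak2 and Tyk2, which serve most of the receptors above, differed by -0.17, -0.15 and 0.31, and each had a probe set of the opposite sign. Those were 0.51 and 0.33 for Jak1, 0.26 for Jak2 and -0.05 for Tyk2.

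Of the 29 ligands, 16 lay below the reference on every array, beside 3681 of all 18193 genes. Among these 29 ligands, 0 were higher and 1 lower at an unadjusted p under 0.05 (beside 3.53% and 2.78% of all genes). The lower one was Tnf, at 4.52 and 4.55 in the N-myc high arrays and 4.95 and 5.43 in the N-myc low ones, with a difference of -0.66 (SE 0.235). With the mouse as a block 3 ligands were higher, Il7 (0.76), Il18 (0.76) and Il4 (0.98), and 0 lower (beside 3.59% and 2.45% of all genes), Tnf being lost at an unadjusted p of 0.0530 in limma. Il12b differed by -0.45 and Il33 by -0.41, the latter below the reference. Of 5 decoys and antagonists, 0 were at an unadjusted p under 0.05 in limma, with or without the block. Il1rn, the IL-1 receptor antagonist, differed by -0.58, or by -0.05 without N-myc low mouse 2, Il18bp by -0.29 and Il22ra2 by 0.23.

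**Figure D4:**
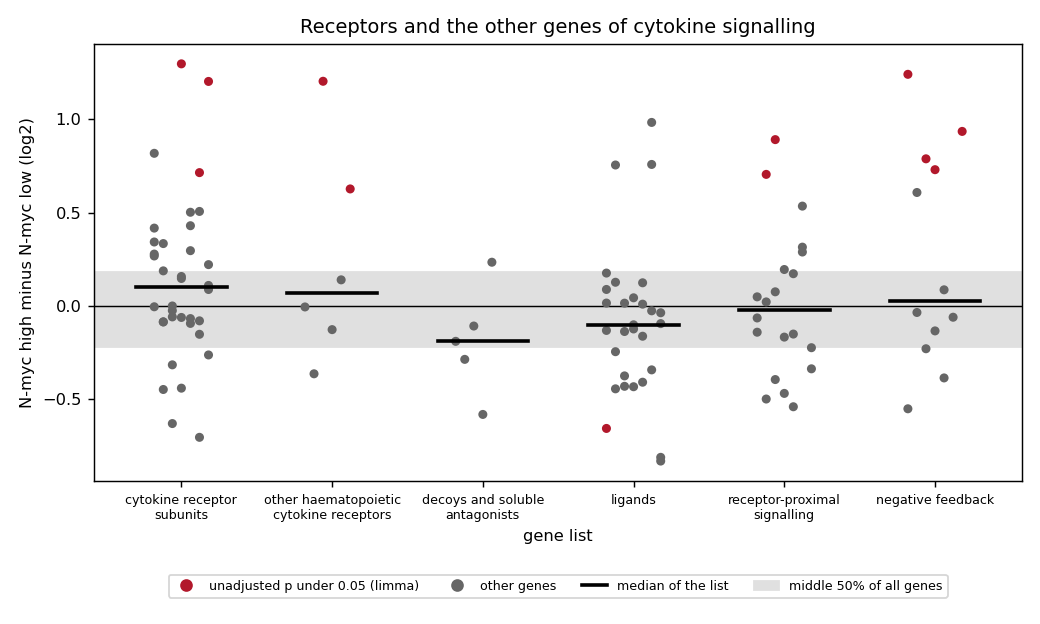
Difference N-myc high minus N-myc low on the log2 scale (y axis) for the receptor subunits and 5 lists of other cytokine signalling genes (x axis), each point a gene, with the list median as a bar and the interquartile range of all genes as a grey band. The list medians run from -0.19 to 0.10, and the red points, at an unadjusted p under 0.05, are 3 receptors, 8 higher genes of the other lists and Tnf.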

How the data were processed

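Per the submitters' processing notes, RMA gave the deposited log2 intensities, and the notes list affy and limma beside it. RMA equalises the distribution of intensities between arrays, so shifts shared by all genes are removed. The sources used here do not give the build, chip definition or filters. Of 45101 probe sets, 34945 named 1 gene in the platform annotation, which gave 18193 genes, and no dim gene was left out. Depth has no meaning for arrays, and their number limits the precision.

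The fit used limma 3.58.1 under R 4.3.3, with lmFit and eBayes, was tested on simulated data, and gave the SE and the p adjusted over all genes. With 2 against 2 arrays an exact two-sided permutation p cannot go below 0.333. The labels part the arrays of a group by mouse number alone, and Xist differed between the numbers in both fractions. P-values measure the spread between these arrays. The mouse number was read as marking the same material in both fractions, whether or not mouse 1 was a single animal. Across genes, arrays of the same number deviated from their fraction's mean with a correlation of 0.0492. Alternatives were the mouse as a block, the mean of probe sets, every probe set, no dim genes, a trended robust prior, centred arrays and each array left out.

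The members and lists were chosen with earlier results of these data known. All measured members were named, with Mycn and Huwe1, the 3 genes of smallest p from each pathway list and the extremes of the marker lists. The complexes, the other pathway genes (Epor, Il4, Il7, Il18, Socs3, Pias3, Ptpn6, Jak1, Jak2, Tyk2), S100a9, Cd2, Nkg7, Xist and Eif2s3y were chosen after their values were seen. Results of marker lists not given in the text are in the closing section.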

Additional observations from a re-analysis of the deposited data

How the results depend on the processing

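No receptor passed the adjusted threshold under any of the 10 alternatives (lowest adjusted p 0.542), and 18 of the 36 kept their sign under all of them. With the mouse as a replicate block, 0 genes passed, 173 genes met the unadjusted p under 0.01 and 1.5-fold against 223 without it, 129 of them higher. No adjusted call changed with the block, while by unadjusted p the receptors Csf2rb2 and Il6ra and the adaptor Sh2b3 left the narrower rule, Cish entered it, Osmr, Tgfbr2, Pias3 and Tnf no longer had p under 0.05, and Il4, Il7 and Il18 did. Over every probe set 410 met that rule (232 higher) and 12658 did not overlap, against 6625 genes, since more features were tested. Without dim genes, those with a mean level under the median of all genes, 20 receptors were left. Of the genes left, 106 met the rule (63 higher) and 3374 did not overlap, as did 8 of the 20 receptors, 4 of them higher. How the 3374 split by direction is not given here. Centred arrays gave 8 lower receptors. With 1 array left out, which compares 2 arrays with 1, 117 to 319 genes met the rule (85 to 154 higher) and 11974 to 12852 did not overlap, as did 22 to 27 receptors, 13 to 15 higher and 7 to 14 lower, since fewer arrays overlap less often. The sign turned with the mean of probe sets for Il13ra1 (-0.035), Lepr (-0.073), Ifnar1 (0.79) and Il10ra (0.22), where the probe sets disagree.
With 1 array left out, the sign turned for Il5ra (-0.18 to 0.021), Il4ra (-0.33 to 0.14), Il7r (-0.18 to 0.84), Il9r (-0.053 to 0.0010), Il13ra1 (-0.19 to 0.36), Il21r (-0.075 to 0.52), Lifr (-0.25 to 0.11), Il12rb2 (-2.18 to 0.77), Ifnar2 (-0.18 to 0.39), Ifngr1 (-0.24 to 0.22), Ifngr2 (-0.12 to 0.49), Il10ra (-0.12 to 0.12), Il10rb (-0.25 to 0.12), Il1r1 (-0.16 to 1.02), Il18r1 (-0.43 to 0.31) and Il18rap (-0.49 to 0.79).
Precision rests on 2 arrays per group, and a dim value has no measured background of its own.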

Other observations

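Marker lists not described above gave these values. Dendritic cell markers had a median difference of 1.20 over 7 genes, from -0.06 for Xcr1 to 2.15 for Cd74, and erythroid and megakaryocyte markers -0.55 over 7, from -0.997 for Gp1bb to 0.47 for Pf4. T and NK cell markers had a median of -0.04 over 7, from -0.87 for Gzmb to 0.20 for Cd3d, B cell markers -0.15 over 7, and mast cell and basophil markers -0.27 over 7. Endothelial and stromal markers had 0.16 over 8, from -0.87 for Pecam1 to 1.88 for Vwf. The bioB and bioC hybridisation controls stood at 10.85 and 10.81 in the N-myc high arrays and 11.05 and 11.67 in the N-myc low ones, so N-myc low mouse 2 was the array farthest from the others.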
